A study of Mus musculus with 9 samples.

Results

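The 8 genes described here encode transcription factors that make and maintain midbrain dopamine neurons: Nr4a2 (also known as Nurr1), Pitx3, En1, En2, Lmx1a, Lmx1b, Foxa1 and Foxa2. They were taken by gene symbol as 8 of the 27339 gene rows of an RNA-seq table of the mouse substantia nigra pars compacta, the midbrain nucleus whose dopamine neurons are lost in Parkinson's disease. The table held 9 libraries in 3 groups of 3. The Ctrl group was labelled as control, the MPTP group was given MPTP, and the third group was given MPTP together with a medium-chain-triglyceride ketogenic diet (MPTP + MCT-KD). MPTP is a neurotoxin whose metabolite is taken up through the dopamine transporter. The diet is a high-fat, low-carbohydrate feed that raises circulating ketone bodies. All animals of the diet group also received MPTP, and no group with the diet alone was analysed here. Strain, age, sex, doses and the time after MPTP are not stated in the labels. Neither do the labels say whether each library came from 1 animal or from pooled animals, so p-values measure only the spread between these libraries, part of which may be technical.

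During development Foxa1 and Foxa2, forkhead factors of the floor plate, and Lmx1a and Lmx1b, LIM homeodomain factors, specify midbrain dopamine progenitors. Nr4a2, an orphan nuclear receptor, and Pitx3, a paired-like homeodomain factor, then switch on the dopamine phenotype, which includes tyrosine hydroxylase (Th), the dopamine transporter (Slc6a3), the vesicular monoamine transporter (Slc18a2) and aromatic amino acid decarboxylase (Ddc). En1 and En2, the engrailed homeodomain factors, pattern the midbrain-hindbrain boundary and support the survival of dopamine neurons in the adult. Several of these genes are not restricted to dopamine neurons: Lmx1b and the engrailed genes, for example, are also known in serotonin neurons of the raphe, which lies near the midline of the same brainstem.

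Promoter sequences are shown for 4 genes because Nr4a2 and Pitx3 are the pair with the lowest values after MPTP relative to their spread, Foxa1 is the member that held a searched motif, and Ddc is the dopamine gene that did. The 250 bases before each RefSeq start (GRCm38.p6) were read from a promoter table that matched 7 of the 8 members and, with Th, Slc6a3, Slc18a2 and Ddc, 11 of 12 genes in 14 windows. Each of 3 letter strings was searched on both strands: AAAGGTCA, the NBRE bound by Nr4a2 and its paralogues, which 1.34% of 32851 RefSeq windows of this length held; TAATCC, a Pitx-type homeodomain site, held by 6.25%; and TGTTTAC, a Foxa-type forkhead core, held by 3.17%. The NBRE was found in 1 window of Ddc, at positions -73 to -66 from the start, and the forkhead core in Foxa1, at -141 to -135. Each sequence is written 5′ to 3′ on the gene's strand, which is the minus strand for all 4, with a motif match in capitals. The Pitx3 sequence leaves out the last base of its window, which lies in an annotated Pitx3 exon, and the Foxa1 sequence is the 30 bases around the match. The Foxa1 window precedes a RefSeq start that lies inside the annotated gene, chr12:57540628-57546916. Both matches lie on the opposite strand. Nr4a2 is shown at chr2:57124004-57124253, Pitx3 at chr19:46148327-46148575, Foxa1 at chr12:57546234-57546263 and Ddc at chr11:11898145-11898394.
Nr4a2: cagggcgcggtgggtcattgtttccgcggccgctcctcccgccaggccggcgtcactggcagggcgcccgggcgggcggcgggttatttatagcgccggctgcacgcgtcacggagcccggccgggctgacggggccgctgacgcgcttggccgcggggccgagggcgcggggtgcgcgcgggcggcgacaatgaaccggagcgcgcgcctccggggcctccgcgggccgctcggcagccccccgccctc
Pitx3: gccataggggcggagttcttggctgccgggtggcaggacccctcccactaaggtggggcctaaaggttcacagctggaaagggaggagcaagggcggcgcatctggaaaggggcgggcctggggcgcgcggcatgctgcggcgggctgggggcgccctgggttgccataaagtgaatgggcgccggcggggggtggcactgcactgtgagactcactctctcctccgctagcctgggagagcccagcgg
Foxa1: tatactgctttGTAAACAaagtgagggcca
Ddc: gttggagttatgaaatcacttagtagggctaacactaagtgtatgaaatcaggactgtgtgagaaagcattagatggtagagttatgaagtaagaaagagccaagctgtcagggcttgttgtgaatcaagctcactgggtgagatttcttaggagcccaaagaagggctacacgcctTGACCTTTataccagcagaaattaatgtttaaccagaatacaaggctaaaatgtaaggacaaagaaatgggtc
The Nr4a2 window was 80.0% G and C, the Pitx3 window 68.8% and the Ddc window 40.8%, against a median of 52.4% over all windows. These matches describe letters in a window, and the RNA data do not measure binding there.

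Libraries held between 33187343 and 40001344 counts. The dopamine neuron markers were present in every library: their summed level over 8 markers was 664 to 995 CPM (counts scaled to a normalised library total of 1000000), and none of the 8 was at 0. Markers of neighbouring tissue varied within groups. The 4 raphe serotonin markers summed to 27.7 to 181 CPM and were lowest in library 1 of each group, at 50.6, 27.7 and 32.9 CPM in Ctrl, MPTP and MPTP + MCT-KD, and Tph2, the serotonin-synthesising enzyme gene among them, ran from 10.6 to 102 CPM. Ctrl library 3 stood apart with 1192 CPM over 5 choroid plexus markers, against 16.2 to 90.9 CPM elsewhere, and 64.8 CPM over 3 pineal markers, against 0.37 to 3.56 CPM. MPTP library 1 had the lowest serotonin sum and the lowest sum of 6 meningeal markers, 68.5 CPM.

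All 8 members passed the filter on low values, a mean of 0.5 FPKM (fragments per kilobase of transcript, scaled to sequencing depth) over the 9 libraries. On this per-length scale Nr4a2 had the highest mean level, 6.74 FPKM, and lay above the next gene in 9 of 9 libraries. En1 followed at 3.57 FPKM, again above the next gene in 9 of 9. En2 at 2.62 FPKM and Foxa1 at 2.23 FPKM kept their order in 7 of 9 libraries, and Lmx1b at 1.97 FPKM lay above Foxa2 in 9 of 9. The lowest 3 did not separate: Foxa2 at 1.47 FPKM exceeded Pitx3 at 1.22 FPKM in 5 of 9 libraries, and Pitx3 exceeded Lmx1a at 1.10 FPKM in 4 of 9. All levels between genes are per length, while the comparisons between groups below use CPM and raw counts of 1 gene at a time.

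**Figure D1:**
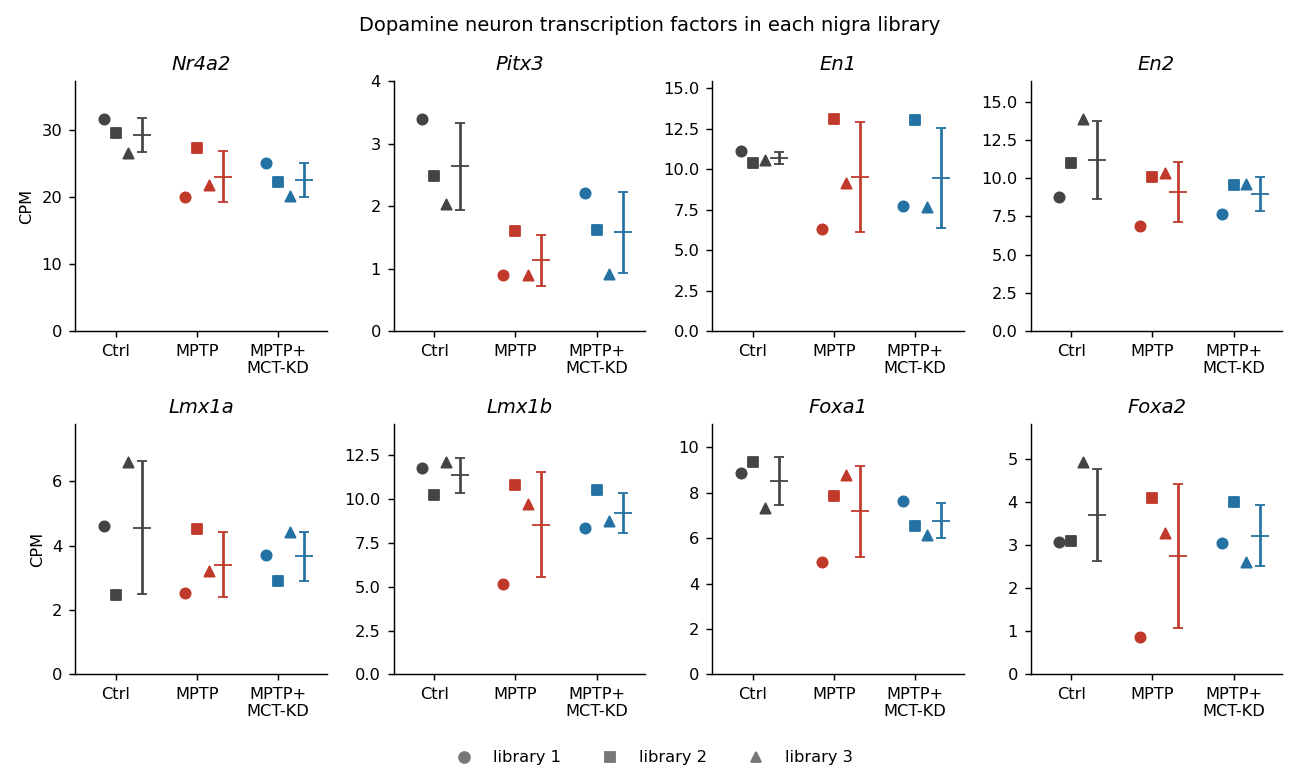
Level of each transcription factor in CPM (vertical axes from 0) in Ctrl, MPTP and MPTP + MCT-KD, with 1 point per library, its shape giving the library number, and the group mean and SD. The Pitx3 panel shows all 3 MPTP libraries, 0.898 to 1.60 CPM, below the lowest Ctrl library at 2.03 CPM, as for 5.41% of all tested genes. The Foxa2 panel shows MPTP library 1 at 0.876 CPM far below the rest.

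The first comparison asked how the factors stood after MPTP. Against Ctrl the fitted level of all 8 members was lower in the MPTP group, with a median log2 fold change of -0.38, beside -0.00092 over all 14949 genes tested, of which 50.4% were lower. Pitx3 was lowest, 57.1% below Ctrl, Lmx1a, Lmx1b and Foxa2 were 24.8% to 25.4% below, and En1 was nearest to Ctrl at 11.0% below. None of the 8 passed the test after adjustment over all genes in edgeR, DESeq2 or limma; in edgeR 0.0134% of the genes tested did, 2 genes in all. At an unadjusted p under 0.05, 2 of the 8 were lower, Nr4a2 and Pitx3, beside 2.69% of all genes. In bulk tissue, fewer dopamine neurons and less RNA per neuron cannot be told apart.

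The count of 8 lower members turned on 1 library for some genes. MPTP library 1 was the lowest of the 9 libraries for 6 of the 8 members. Without it 6 of 8 were lower, the median being -0.14 on the log2 scale, and without both MPTP library 1 and Ctrl library 3, 4 of 8 were lower, with a median of -0.03. Nr4a2 and Pitx3 were among those that kept their direction, at -0.32 and -1.24 in that reduced set.

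**Figure D2:**
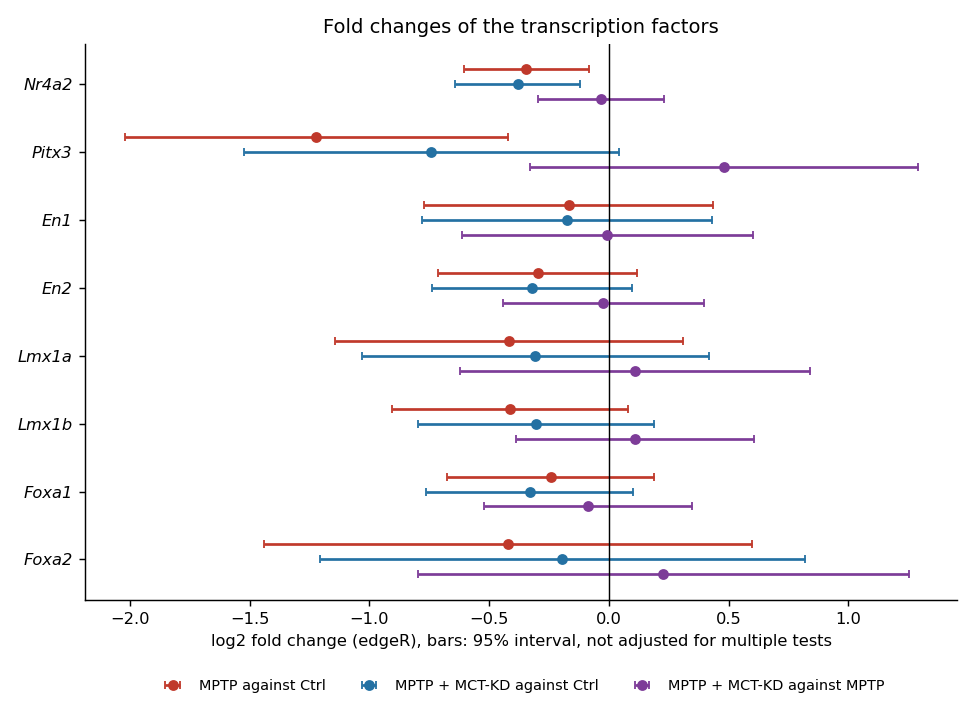
Log2 fold change (horizontal axis) of each transcription factor in the 3 comparisons between 2 groups, fitted with edgeR, with bars for the 95% interval before adjustment for multiple tests. The points for MPTP and for MPTP + MCT-KD against Ctrl lie below 0 for all 8 genes, and the intervals of MPTP against Ctrl exclude 0 for Nr4a2 and Pitx3.

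Nr4a2, which maintains the dopamine phenotype in the adult nigra, was measured on 707 to 1267 counts per library (ENSMUSG00000026826, chr2:57106830-57124003 of GRCm38, minus strand). Its CPM was 31.6, 29.6 and 26.6 in Ctrl, 20.0, 27.3 and 21.8 in MPTP, and 25.1, 22.2 and 20.1 in MPTP + MCT-KD. The 3 diet libraries lay below all 3 Ctrl libraries, as for 6.4% of all tested genes, while MPTP library 2 overlapped Ctrl library 3. Group means were 29.2 ± 2.52 CPM (SD, n = 3) in Ctrl, 23.0 ± 3.83 in MPTP and 22.5 ± 2.52 in MPTP + MCT-KD. Nr4a2 was 21.3% below Ctrl after MPTP, a log2 fold change of -0.35 (SE 0.121, 95% interval -0.61 to -0.08, edgeR adjusted p 0.893). Adding the diet left it at -0.38 from Ctrl (SE 0.121, edgeR adjusted p 0.740). With both MPTP groups combined the value was -0.36 (SE 0.103, edgeR adjusted p 0.899, unadjusted p 0.00379). The intervals exclude 0 and the adjusted values do not pass.

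Pitx3, which in the brain is largely restricted to midbrain dopamine neurons, was the member furthest below Ctrl. It is a low-count gene, with 32 to 136 counts per library (ENSMUSG00000025229, chr19:46135685-46148326, minus strand; it overlaps Elovl3 on the other strand, and without a stated strand setting reads of the 2 cannot be told apart where they overlap). The Ctrl libraries gave 3.39, 2.49 and 2.03 CPM, the MPTP libraries 0.904, 1.60 and 0.898, and the diet libraries 2.21, 1.61 and 0.910. The MPTP and Ctrl libraries did not overlap, as for 5.41% of all tested genes in the lower direction, whereas diet library 1 lay above Ctrl library 3. The means were 2.64 ± 0.691 CPM (SD, n = 3) in Ctrl, 1.13 ± 0.402 in MPTP and 1.58 ± 0.653 in MPTP + MCT-KD. The log2 fold change of MPTP against Ctrl was -1.22 (SE 0.371, 95% interval -2.02 to -0.42, edgeR adjusted p 0.885). For the diet group against Ctrl it was -0.74 (SE 0.364, edgeR adjusted p 0.750), and between -1.07 without diet library 1 and -0.46 without diet library 3. Both MPTP groups together lay at -0.98 (SE 0.307, edgeR adjusted p 0.899), and over the 18 alternative settings the MPTP value ran from -1.55 to -0.66.

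En1 (ENSMUSG00000058665, chr1:120602418-120607992, plus strand) supports mitochondrial function and survival of adult dopamine neurons. It was even across Ctrl, at 11.1, 10.4 and 10.6 CPM, and uneven across the treated libraries, at 6.33, 13.1 and 9.12 CPM in MPTP and 7.71, 13.0 and 7.68 CPM in MPTP + MCT-KD. Library 2 of both treated groups lay above every Ctrl library and the others below. The spread between MPTP libraries, a coefficient of variation of 35.7%, was well above the 5.5% that counting alone gives, while in Ctrl it was 3.6% against 5.0%. The log2 fold change after MPTP was -0.17 (SE 0.270, edgeR adjusted p 0.973), and without MPTP library 1 it was 0.06.

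En2 (ENSMUSG00000039095, chr5:28165694-28172166, plus strand), the other engrailed gene, read 8.75, 11.0 and 13.9 CPM in Ctrl, 6.86, 10.1 and 10.3 in MPTP, and 7.68, 9.55 and 9.61 in MPTP + MCT-KD. Library 1 was the lowest in each group, and all 3 groups overlapped. These were also the 3 libraries with the lowest serotonin marker sums, and the part of that in the result was not tested. A fit with the serotonin genes as a covariate left all 8 members lower in the MPTP group with a median of -0.37. That fit cannot decide the point, because library 1 was low in every group and the covariate could move a group difference only a little. The mean was 11.2 ± 2.56 CPM (SD, n = 3) in Ctrl, and the log2 fold change was -0.30 (SE 0.192, edgeR adjusted p 0.922) after MPTP and -0.32 (SE 0.193, edgeR adjusted p 0.802) with the diet. Without Ctrl library 3 these were -0.12 and -0.14, without Ctrl library 1 -0.44 and -0.47, and without MPTP library 1 the value after MPTP was -0.13.

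Lmx1a (ENSMUSG00000026686, chr1:167689237-167848741, plus strand), a determinant of dopamine progenitor identity, varied most among the Ctrl libraries, at 4.61, 2.46 and 6.58 CPM. The highest value was in Ctrl library 3, the library with the high choroid plexus and pineal sums, whose part in this value was not tested. In MPTP it read 2.51, 4.52 and 3.20 CPM and in MPTP + MCT-KD 3.71, 2.89 and 4.41 CPM, all inside the Ctrl range. The log2 fold change after MPTP was -0.42 (SE 0.334, edgeR adjusted p 0.937) with all libraries and -0.05 without Ctrl library 3.

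Lmx1b (ENSMUSG00000038765, chr2:33560965-33640511, minus strand) acts with Lmx1a in dopamine neurons and is needed for serotonin neurons. Its level was 11.8, 10.2 and 12.1 CPM in Ctrl, 5.17, 10.8 and 9.71 in MPTP, and 8.34, 10.5 and 8.78 in MPTP + MCT-KD. MPTP library 1 held less than any other library, and MPTP library 2 and diet library 2 reached the Ctrl range. The log2 fold change was -0.41 (SE 0.225, edgeR adjusted p 0.915) after MPTP, and -0.15 without MPTP library 1. With the diet it was -0.30 (SE 0.224, edgeR adjusted p 0.848).

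Foxa1 (ENSMUSG00000035451, chr12:57540628-57546916, minus strand), a forkhead factor that opens chromatin, read 8.85, 9.34 and 7.33 CPM in Ctrl, 4.94, 7.84 and 8.78 in MPTP, and 7.62, 6.54 and 6.14 in MPTP + MCT-KD. MPTP library 1 was again the lowest, and the diet libraries 2 and 3 lay below all Ctrl libraries. The fitted difference was -0.24 on the log2 scale (SE 0.200, edgeR adjusted p 0.941) after MPTP, and -0.03 without MPTP library 1. With the diet it was -0.33 (SE 0.200, edgeR adjusted p 0.802).

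Foxa2 (ENSMUSG00000037025, chr2:148042877-148046969, minus strand), its paralogue in dopamine progenitors and adult dopamine neurons, was carried by 1 library. Ctrl gave 3.07, 3.09 and 4.92 CPM, MPTP 0.876, 4.10 and 3.28, and MPTP + MCT-KD 3.05, 4.0 and 2.62. MPTP library 1 held 31 counts, whose 95% counting interval of 0.595 to 1.24 CPM ended below that of the next lowest library, 2.11 to 3.21 CPM. The coefficient of variation in MPTP was 60.9%, against 10.3% from counting. The log2 fold change after MPTP was -0.42 (SE 0.457, edgeR adjusted p 0.956) with this library and 0.0029 without it.

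The second comparison asked whether the diet changed the factors in mice given MPTP. It gave differences in both directions that did not pass the test: 4 members were lower and 4 higher in MPTP + MCT-KD than in MPTP, beside 49.8% lower among all genes tested, with a median log2 difference of 0.05. No member passed in edgeR, nor did any of the 14949 genes (0%), of which 1163 had an unadjusted p under 0.05, and DESeq2 called 19 genes. None of the 8 had an unadjusted p under 0.05, beside 4.02% of all genes in the lower and 3.76% in the higher direction. Nor did the libraries of the 2 groups separate for any member, beside 7.1% of all genes lower and 6.64% higher. Pitx3 had the largest difference, 0.48 (SE 0.376, 95% interval -0.33 to 1.29, edgeR adjusted p 0.775), from 1.13 to 1.58 CPM. Leaving out 1 library moved it between 0.15, without diet library 1, and 0.81, without MPTP library 2. In same-numbered libraries of MPTP and MPTP + MCT-KD, whose pairing is not established, Pitx3 was at 0.904 and 2.21, 1.60 and 1.61, and 0.898 and 0.910 CPM. The counts were 53 and 54 in libraries 2, and 32 and 32 in libraries 3. Libraries 1 hold most of the difference, and with the replicate number as a block the value was 0.43 (edgeR adjusted p 0.775). The intervals show what the 3 libraries a group leave possible. For Nr4a2 the difference of -0.03 had an interval of -0.30 to 0.23, and for En2 the difference of -0.02 had one of -0.44 to 0.40. The differences of the others were -0.0061 for En1 (-0.61 to 0.60), 0.11 for Lmx1a (-0.62 to 0.84), 0.11 for Lmx1b (-0.39 to 0.60), -0.09 for Foxa1 (-0.52 to 0.35) and 0.23 for Foxa2 (-0.80 to 1.25).

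Against Ctrl, the diet group was lower for all 8 members, with a median log2 fold change of -0.31, beside -0.0015 over all genes, of which 50.5% were lower. No gene passed in edgeR (0%), 1006 had an unadjusted p under 0.05, and DESeq2 called 14, none of them a member. Nr4a2 was the member with an unadjusted p under 0.05, beside 3.36% of all genes lower at that level. It was also the member whose libraries did not overlap, beside 6.4% of genes. En1 stood at -0.17 (edgeR adjusted p 0.938), Lmx1a at -0.31 (edgeR adjusted p 0.906) and Foxa2 at -0.20 (edgeR adjusted p 0.955). Without Ctrl library 3, 6 of 8 were lower, Lmx1a and Foxa2 having turned to 0.06 and 0.07. The 2 comparisons with Ctrl share the Ctrl libraries, so their directions are not independent of each other. With both MPTP groups together, all 8 were lower than Ctrl, beside 51.3% of all genes, with a median of -0.33, and none of the genes tested passed in edgeR (0%), while 816 had an unadjusted p under 0.05 and DESeq2 called 16, none of them a member. Nr4a2 and Pitx3 were again lower at an unadjusted p under 0.05 (2 of 8, beside 2.64% of all genes). The other members were at -0.17 (En1), -0.31 (En2), -0.36 (Lmx1a), -0.36 (Lmx1b), -0.29 (Foxa1) and -0.31 (Foxa2), with edgeR adjusted p from 0.920 to 0.963. No member's 6 treated libraries all lay below the 3 Ctrl libraries, beside 1.21% of all genes.

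**Figure D3:**
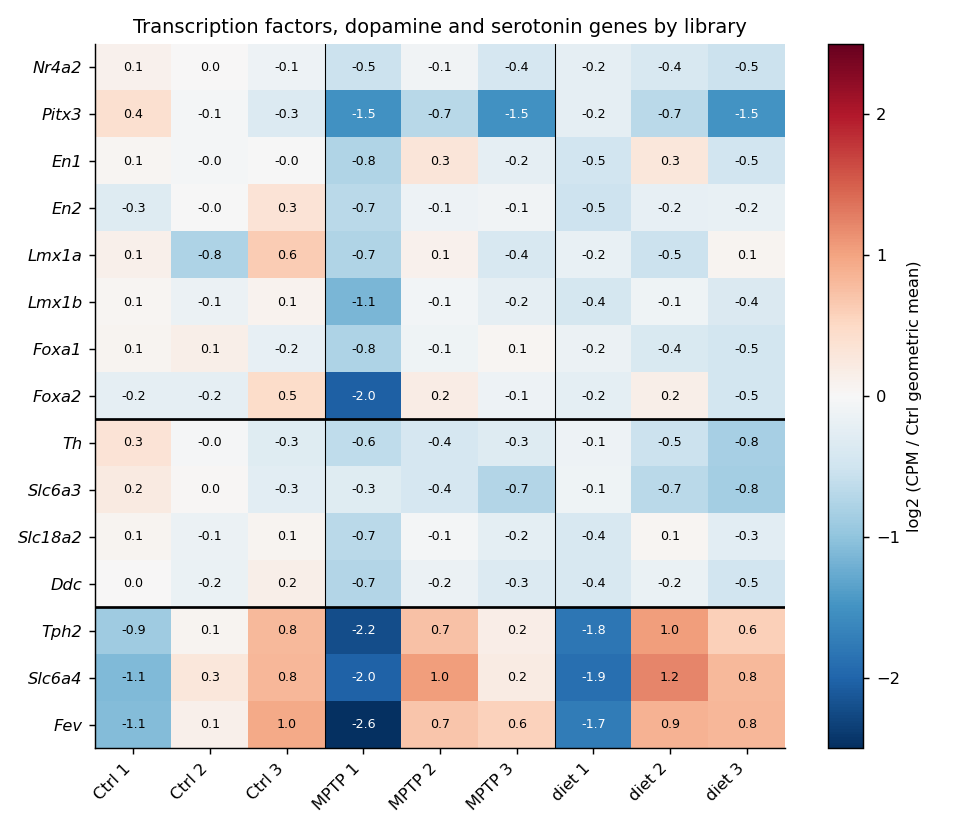
Log2 ratio of CPM to the Ctrl geometric mean (colour) for the 8 transcription factors, the 4 dopamine genes and the 3 serotonin genes (rows) in each of the 9 libraries (columns). MPTP library 1 is low for most rows, and the serotonin genes are low in library 1 of each group.

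Across the 9 libraries Nr4a2 and Pitx3 had the highest correlations with the dopamine genes among the 8 factors. Each member was set against a dopamine score, the mean log2 CPM of Th, Slc6a3, Slc18a2 and Ddc, with an exact permutation of the pairings and adjustment over 16 relations, the other 8 of which were with the serotonin genes Tph2, Slc6a4 and Fev. The dopamine score relative to the Ctrl mean was 0.16, -0.08 and -0.08 in Ctrl, -0.59, -0.26 and -0.41 in MPTP, and -0.26, -0.32 and -0.60 in MPTP + MCT-KD. Nr4a2 followed this score most closely, with Pearson's r 0.950 (exact permutation, adjusted p 0.000794) and Spearman's rho 0.967 (exact permutation, adjusted p 0.00265). Pitx3 came next, with r 0.938 (exact permutation, adjusted p 0.00278) and rho 0.850 (exact permutation, adjusted p 0.0486). Without Ctrl library 1 and diet library 3, the libraries furthest from the median score, r was 0.914 for Nr4a2 and 0.885 for Pitx3. Neither relation rested on the difference between groups alone: with group means removed r was 0.887 and 0.918, and within the 6 libraries given MPTP it was 0.900 and 0.864. The permutation exchanged libraries across the groups, and these last values of r carry no p. The share of all genes that reach such an r with the dopamine score was not computed.

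The other 6 members did not pass against the dopamine score. Foxa1 reached r 0.725 and Lmx1b 0.710 (exact permutation, adjusted p 0.0716 for each), En1 0.592 (adjusted p 0.165), Foxa2 0.526 (adjusted p 0.244), En2 0.368 and Lmx1a 0.348 (adjusted p 0.471 for each). With a score of Th and Slc6a3 alone, which serotonin neurons do not share, Nr4a2 had r 0.867 and Pitx3 0.879 (exact permutation, adjusted p 0.0175 for each), while Spearman's rho, 0.817 for both, did not pass (exact permutation, adjusted p 0.0862). The rest ranged from -0.03 for En2 to 0.601 for Foxa1. That second score was chosen after the data were seen.

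The serotonin score fell into separate clusters, with library 1 of each group at -1.01, -2.22 and -1.79 relative to the Ctrl mean. The other 6 libraries lay between 0.16 and 1.03, so a correlation over all 9 rests largely on that gap. Over all 9, En2 (r 0.811, exact permutation, adjusted p 0.0227) and Foxa2 (r 0.732, adjusted p 0.0491) passed and the other members did not. Spearman's rho, 0.600 for En2 and 0.783 for Foxa2, did not pass (exact permutation, adjusted p 0.172 and 0.0919). Without MPTP library 1 and diet library 1, r was 0.435 and 0.470. Within the 6 libraries, a subset chosen after the scores were seen, no member passed over the 8 relations. Pearson's r ran from -0.826 for Foxa1 (exact permutation, adjusted p 0.478) to 0.527 for Lmx1a (exact permutation, adjusted p 0.730). En2 had its 3 lowest values of all 9, 6.86, 7.68 and 8.75 CPM, in the 3 libraries with few serotonin transcripts. Nr4a2 had both its highest value, 31.6 CPM in Ctrl library 1, and its lowest, 20.0 CPM in MPTP library 1, among those 3 libraries.

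**Figure D4:**
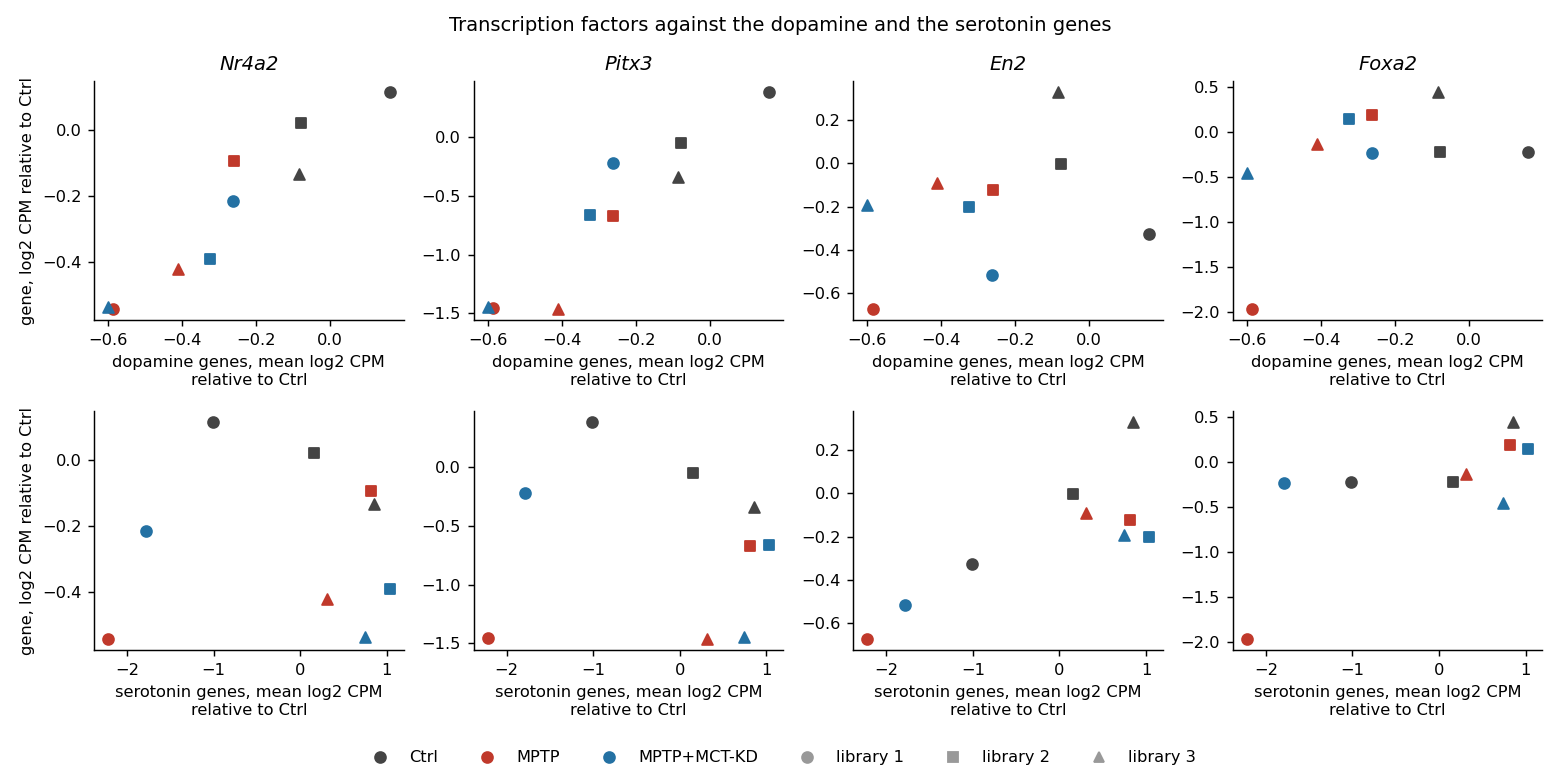
Log2 CPM relative to Ctrl of Nr4a2, Pitx3, En2 and Foxa2 (vertical axes) against the mean of the dopamine genes (top row) and of the serotonin genes (bottom row), with colour for the group and shape for the library number. Nr4a2 and Pitx3 lie along a rising line with the dopamine genes (r 0.950 and 0.938), and library 1 of each group lies apart on the serotonin axis.

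Among the factors themselves, the closest pairs over the 9 libraries were Foxa2 with Lmx1b (r 0.93) and Pitx3 with Nr4a2 (r 0.92), followed by Lmx1b with En1 (r 0.84). The lowest were Foxa1 with Lmx1a (r 0.15) and En2 with Pitx3 (r 0.19). These values are descriptions over 9 libraries that share depth and dissection, and no p is attached. MPTP library 1 was the lowest of the 9 for Foxa2, Lmx1b and En1, at -1.97, -1.13 and -0.75 on the log2 scale relative to Ctrl. Its part in these values of r was not tested. By the same measure over 14941 other genes, the genes most like Nr4a2 were Slc10a4 (r 0.963), an orphan vesicular transporter of monoamine and cholinergic neurons, Ppm1f (0.934) and Dedd2 (0.911). Those most like Pitx3 were Gstp1 (0.963), Dedd2 (0.959) and Ppm1f (0.926). Dedd2 and Ppm1f appear on both lists, those of 2 members whose own r was 0.92. Lmx1b was closest to Rcn2 (0.988), Slc18a2 (0.958) and Erbb4 (0.950), En1 to Amot (0.955), Slc36a4 (0.954) and Tm4sf1 (0.941), and En2 to Ccnd2 (0.943), Plscr2 (0.927) and 1190002N15Rik (0.923). Lmx1a was closest to Flrt2 (0.966), Srek1 (0.960) and Epm2aip1 (0.946), Foxa1 to Gnaz (0.941), Zfp57 (0.933) and Bean1 (0.927), and Foxa2 to Gstcd (0.965), Manba (0.948) and Spp2 (0.942). The mean of all 8 was closest to Erbb4 (0.977), Dact1 (0.969), Smad5 (0.957), Ddc (0.955) and Gm28729 (0.954). Each list holds the highest of 14941 values of r over 9 libraries, and such a search returns high values even among unrelated genes. How high those would reach was not computed.

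Each factor was also set against the mean of the 4 dopamine genes of its own library, which shows whether its level differed apart from theirs. For Nr4a2 the log2 ratio, with the Ctrl mean at 0, was -0.05, 0.10 and -0.05 in Ctrl, 0.04, 0.17 and -0.01 in MPTP, and 0.05, -0.07 and 0.06 in MPTP + MCT-KD. All 9 values lay within 0.17 of 0, and the MPTP and Ctrl means differed by 0.07 (exact permutation p 0.5). This holds for the mean of these 4 genes, of which serotonin neurons share Slc18a2 and Ddc. The ratio to Th and Slc6a3 alone was not computed. Pitx3 lay lower than the dopamine genes after MPTP, at -0.87, -0.41 and -1.06, against 0.23, 0.03 and -0.25 in Ctrl. The 2 groups did not overlap, and the share of all genes that separate by this ratio was not computed. The difference in the Pitx3 ratio was -0.78, with p 0.1 by exact permutation, a floor set by comparing 3 libraries with 3 (0.8 after adjustment over the 8 members). In MPTP + MCT-KD the Pitx3 ratio was 0.05, -0.34 and -0.85, which overlapped both other groups. For both MPTP groups against Ctrl it was -0.58 (exact permutation p 0.0595, adjusted 0.476, where 0.0119 is the smallest possible). The ratios of the other 6 members overlapped between groups, the lowest single values being Foxa2 at -1.39 and Pitx3 at -1.06.

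**Figure D5:**
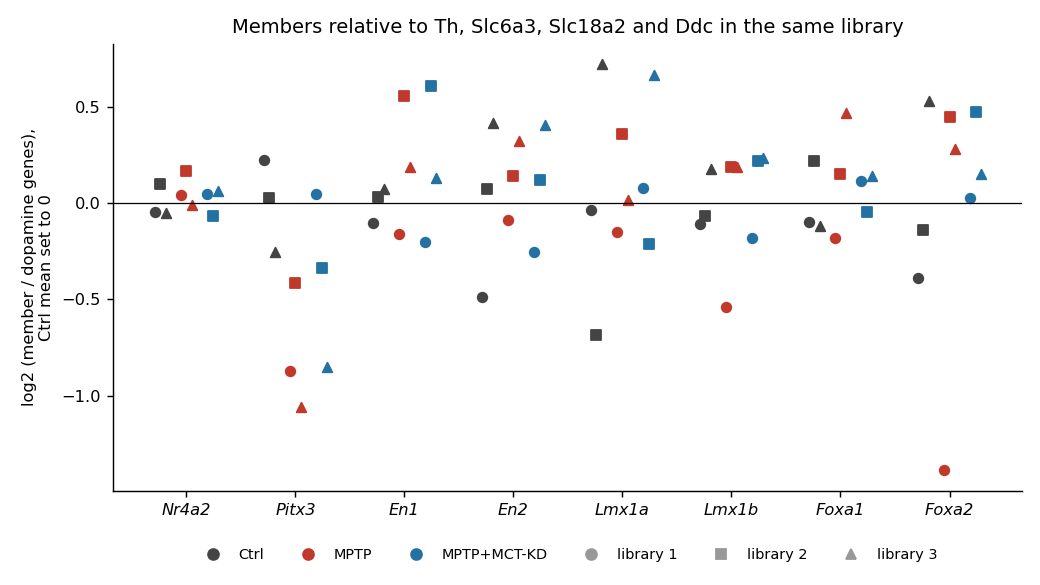
Log2 ratio of each transcription factor to the mean of Th, Slc6a3, Slc18a2 and Ddc in the same library (vertical axis, Ctrl mean at 0), with 1 point per library. Nr4a2 stays within 0.17 of 0 in all 9 libraries, while the 3 MPTP points of Pitx3, -0.41 to -1.06, lie below its Ctrl points. The share of all genes that separate in this way was not computed.

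Lists of other genes of the same regulatory network, 5 in all, were read in the same fits, and no gene of any list passed in any comparison in edgeR. Of 13 dopamine neuron genes reported as targets of the factors, 12 were lower after MPTP (median log2 fold change -0.28) and 13 with the diet (median -0.26). The values of Th were -0.48 and -0.49, of Slc6a3 -0.49 and -0.52, of Slc18a2 -0.30 and -0.19, and of Ddc, the gene with the NBRE, -0.39 and -0.35. Aldh1a1, which among nigral dopamine neurons marks a ventral subset, was at -0.09 and -0.03, and Dlk1 was at -0.13 and -0.41. The mean level of Aldh1a1 was 129 FPKM, against 36.5 for Th, and bulk tissue does not show which cells it came from. Its values are therefore not a measure of that subset. Without MPTP library 1 and Ctrl library 3, 10 of the 13 were lower after MPTP, with a median of -0.16.

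Of 17 tested other transcription factors of dopamine neurons, 12 were lower after MPTP, with a median of -0.08 and a range of -0.76 to 0.27, and 9 with the diet, with a median of -0.02 and a range of -0.84 to 0.18. Among the most abundant, which lay nearer to Ctrl than the ends of that range, the homeodomain cofactor gene Pbx3 was at -0.11 after MPTP, with Lmo3 at -0.07 and Myt1l at 0.02. Of 9 partners and co-regulators of Nr4a2, 5 were lower after MPTP, with a median of -0.01 and a range of -0.33 to 0.08, and 5 with the diet, with a median of -0.0051 and a range of -0.57 to 0.06. Of the most abundant, Sfpq was at -0.10, Rxrb at 0.07 and Kdm1a at 0.04 after MPTP. Of 10 tested genes of midbrain patterning by Wnt and hedgehog signals, 5 were lower after MPTP (median -0.05), the hedgehog receptor genes Ptch1 and Smo at -0.09 and -0.10 and the Wnt effectors Ctnnb1 and Tcf7l2 at 0.05 and 0.15.

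The paralogues of Nr4a2 had another pattern of values. Nr4a1 and Nr4a3, nuclear receptors induced by neuronal activity, bind the same NBRE. Nr4a1 was 16.5 ± 2.55 CPM (SD, n = 3) in Ctrl, 11.4 ± 0.825 in MPTP and 16.0 ± 1.46 in MPTP + MCT-KD. Its log2 difference was -0.53 after MPTP (edgeR adjusted p 0.672) and 0.49 for the diet group against MPTP (edgeR adjusted p 0.587). Nr4a3 was 10.2 ± 1.44, 6.53 ± 0.935 and 11.1 ± 2.92 CPM (SD, n = 3) in the same order, with differences of -0.64 (edgeR adjusted p 0.859) and 0.76 (edgeR adjusted p 0.550). For Nr4a2 the mean with the diet, 22.5 CPM, was close to that of MPTP, 23.0 CPM, and the difference from its paralogues was not tested.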

How the data were processed

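Per the labels' protocols, RNA of 9 samples of mouse substantia nigra pars compacta was purified on RNeasy columns and made into NEBNext Ultra libraries. The authors deposited 1 table which, per the file headers, gives each gene's raw count in every library beside its FPKM. The genome build was GRCm38 (mm10), per the submitters' processing notes. Aligner, counter, annotation release and strandedness: not given in the sources used here. The 10 lines that named no gene were left out.

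Counts were tested with edgeR 4.0.16 (R 4.3.3, TMM, robust quasi-likelihood fit, Benjamini-Hochberg adjustment, threshold 0.05) in 1 model of all 9 libraries, over the 14949 of 27339 genes with a mean of at least 0.5 FPKM. CPM are counts scaled to a library total of 1000000, each total having first been multiplied by its TMM factor. Log2 CPM for scores, ratios and correlations used a prior count of 2. Standard errors and 95% intervals come from the same fit and counting intervals are exact Poisson, which cover counting error only. Library totals were 33187343 to 40001344 counts. The fit was tested on simulated data. Alternatives, 18 in all, included DESeq2 1.42.0 and limma 3.58.1. No 2 libraries of a group agreed within sampling noise.

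Replicate numbers come from the sample titles. Deviations of same-numbered libraries correlated at 0.107 to 0.182 between MPTP and MPTP + MCT-KD, above 0.1 in all 3 pairs. Unlike-numbered libraries of these groups gave -0.150 to 0.0413. Between Ctrl and either group, same-numbered libraries gave -0.151 to 0.0783. Unlike-numbered libraries of Ctrl and MPTP reached 0.186, so a value above 0.1 does not establish pairing. All 8 members are named in every comparison. Of the other lists, up to 4 genes with the highest mean FPKM are named, with Th, Slc6a3, Slc18a2, Ddc and Tph2, the 3 genes most correlated with each member and the 5 most correlated with their mean. The paralogues Nr4a1 and Nr4a3 are named too. Some genes that this rule names are not reported here. The members and lists were chosen with earlier results of these data known. Gene positions are from GENCODE M21.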

Additional observations from a re-analysis of the deposited data

How the results depend on the processing

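No member passed the threshold under any of the 18 alternatives, the lowest adjusted p being 0.34, and Nr4a2 and Pitx3 were lower than Ctrl under all of them, at -0.48 to -0.25 and -1.55 to -0.66 after MPTP. The number of genes called was small and moved with the settings. After MPTP (2 called) it was 14 with DESeq2, 0 with limma at either pseudocount, 0 without robust moderation, 1 with the serotonin covariate, 1 without Ctrl library 3 and MPTP library 1, and 0 to 4 leaving out 1 library. For the diet group against MPTP (0 called) it was 19 with DESeq2, 1 without those 2 libraries and 0 to 1 leaving out 1. For the diet group against Ctrl (0) it was 14 with DESeq2, 1 with no filter, 2 with the serotonin covariate and 0 to 4 leaving out 1, and for both MPTP groups (0) it was 16, 3 with no filter and 0 to 4. With the replicate number as a block the 4 counts were 3, 0, 5 and 7, no member was called, and En1 in the diet group against MPTP was 0.00042. The cause of these shifts was not tested.

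Without Ctrl library 3 and MPTP library 1, directions reversed for En1 (0.049), En2 (0.051), Lmx1a (0.12) and Foxa2 (0.26) after MPTP; for Lmx1a (-0.071), Lmx1b (-0.15) and Foxa2 (-0.20) in the diet group against MPTP; for Lmx1a (0.053) and Foxa2 (0.066) in the diet group against Ctrl; and for Lmx1a (0.088) and Foxa2 (0.16) in both groups. Leaving out 1 library at a time, log2 fold changes that crossed 0 ranged after MPTP from -0.46 to 0.057 (En1) and -0.82 to 0.0029 (Foxa2). Against MPTP, the diet group ranged from -0.12 to 0.11 (Nr4a2), -0.30 to 0.29 (En1), -0.19 to 0.078 (En2), -0.069 to 0.36 (Lmx1a), -0.15 to 0.31 (Lmx1b), -0.29 to 0.084 (Foxa1) and -0.19 to 0.63 (Foxa2). Against Ctrl, it ranged from -0.61 to 0.055 (Lmx1a) and -0.38 to 0.067 (Foxa2), and both groups from -0.66 to 0.00034 (Lmx1a).

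Ratios to the dopamine genes crossed 0 in the same way. After MPTP they ranged from -0.12 to 0.33 (En2), -0.27 to 0.44 (Lmx1a), -0.18 to 0.19 (Lmx1b), -0.016 to 0.31 (Foxa1) and -0.55 to 0.36 (Foxa2). Against MPTP, the diet group ranged from -0.23 to 0.18 (En1), -0.19 to 0.14 (En2), -0.14 to 0.29 (Lmx1a), -0.10 to 0.28 (Lmx1b), -0.24 to 0.085 (Foxa1) and -0.15 to 0.77 (Foxa2). Against Ctrl, it ranged from -0.011 to 0.062 (Nr4a2), -0.039 to 0.37 (En1), -0.15 to 0.30 (En2) and -0.17 to 0.54 (Lmx1a), and both groups from -0.14 to 0.31 (En2), -0.22 to 0.49 (Lmx1a), -0.036 to 0.13 (Lmx1b) and -0.20 to 0.27 (Foxa2). The correlation of En2 with the dopamine genes was -0.031 with Th and Slc6a3 alone. Pitx3 and Foxa2 rest on as few as 32 and 31 counts in a library.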
